A study of Mus musculus with 6 samples.

Results

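The natriuretic peptide system was described here through 7 genes, all of which were measured among the 22180 genes that had an array row with a single gene symbol. Membership is set by gene name, though the set was put together with earlier results of these arrays known. The 7 are 3 peptide genes (Nppa, Nppb and Nppc), the protease gene Corin, 2 guanylyl cyclase receptor genes (Npr1 and Npr2) and the clearance receptor gene Npr3. RNA came from pooled hearts of C57BL/6 mouse embryos at embryonic day 9.5, with 3 pools per genotype, each hybridised to an Affymetrix array. All embryos carried the floxed Hdac3 alleles. The control pools, Hdac3-flox/flox, had no Cre, and the other pools, Hdac3-flox/flox; Isl1-Cre or Hdac3-Isl1KO, also carried Isl1-Cre, which acts in Isl1-expressing cells such as the second heart field progenitors and not in the whole heart. Any effect of the Cre allele on its own therefore cannot be told apart from loss of Hdac3. The sources used here do not give the number of hearts per pool or their litters, so p-values measure the spread between pools, which may be technical.

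Atrial natriuretic peptide (Nppa) and brain natriuretic peptide (Nppb) are secreted by heart muscle, and in the embryo Nppa marks the working muscle of the forming chambers. Corin is the membrane protease that cuts the Nppa precursor, and Nppc encodes C-type natriuretic peptide, made mainly outside heart muscle. Npr1 is the cyclic GMP-making receptor for the atrial and brain peptides and Npr2 that for the C-type peptide, while Npr3 binds all of these peptides and removes them, and is prominent in embryonic endocardium.

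Nppb and Nppa are adjacent genes in the same orientation on chromosome 4. The starts used for their promoter windows lie 14822 bases apart. Because the genes read in opposite directions in the comparison, the sequences upstream of both are shown. RefSeq promoter windows (build GRCm38.p6) were matched by symbol for 7 of 7 genes. The lines give the plus strand, 5′ to 3′, with capitals marking matches to the motifs named after them. For Nppa the window is the 250 bases before the start, chr4:148000472-148000721. For Nppb it is first the part of that window that lies outside the annotated gene, 136 bases at chr4:147985650-147985785, and then 30-base sites at chr4:147985793-147985822 and chr4:147985857-147985886.
Nppa: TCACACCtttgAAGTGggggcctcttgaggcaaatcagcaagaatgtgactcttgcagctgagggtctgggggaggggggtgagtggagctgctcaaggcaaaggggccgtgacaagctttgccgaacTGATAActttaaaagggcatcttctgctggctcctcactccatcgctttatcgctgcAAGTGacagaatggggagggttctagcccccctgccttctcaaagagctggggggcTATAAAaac
Nppb, outer part: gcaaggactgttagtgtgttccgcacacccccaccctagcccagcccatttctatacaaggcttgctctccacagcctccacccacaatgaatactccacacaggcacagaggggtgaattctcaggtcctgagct
Nppb, inner site: caGGAATGcagcTGATAAatcagAGATAAc
Nppb, TATA site: actcagccccagTATAAAaggcagaggcac

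The 250 bases before each start were searched on both strands for 8 motifs: a first GATA factor site spelled AGATAA, a second GATA factor site spelled TGATAA, the core of the Nkx2-5 site spelled AAGTG, a T-box half-site spelled GGTGTGA, the M-CAT element spelled GGAATG, the TATA box spelled TATAAA, the CArG box and the MEF2 box. Nppa held 1 second GATA site, 2 Nkx2-5 cores, 1 T-box half-site (on the reverse strand, at the far end) and 1 TATA box. Nppb held 1 first and 1 second GATA site, 1 M-CAT element and 1 TATA box. All of these Nppb matches lay between -105 and -26 from the start used for the window. That stretch is inside the annotated Nppb gene, since the part outside it ends at -115. Neither window matched the CArG or MEF2 box. Both windows thus held the letters of the second GATA site and of the TATA box, but at different positions. The TATA match lay at -9 to -4 for Nppa and at -31 to -26 for Nppb, and the second GATA site at -122 to -117 and at -95 to -90. The Nkx2-5 core and the T-box half-site were found in the Nppa window. The M-CAT element and the first GATA site were found in the Nppb window. Among all 32851 windows of that length, 9.99% held the first GATA site, 7.94% the second, 40.7% the Nkx2-5 core, 3.33% the T-box half-site, 12.6% the M-CAT element, 12.4% the TATA box, 1.47% the CArG box and 2.92% the MEF2 box. In the windows of the other 5 genes, Nppc held 1 TATA box and no further match was found. There were 0 overlaps between matches. A match is a run of letters and was not tested for binding.

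Values are RMA log2 expression values as deposited and every difference is the Hdac3-Isl1KO mean less the Hdac3-flox/flox mean, so that a positive value is higher in Hdac3-Isl1KO hearts. Array medians lay between 5.64 and 5.71 and correlations between arrays ran from 0.980 to 0.989. Scores on the first principal component were -8.4, -26.6 and -1.8 in the control pools and 7.6, 14.8 and 14.5 in the Hdac3-Isl1KO pools. They were apart by genotype, and the most extreme was that of Hdac3-flox/flox replicate 2. Hdac3 itself read 9.67, 9.73 and 9.64 in the control pools and 9.11, 9.20 and 9.31 in the Hdac3-Isl1KO pools (difference -0.47, limma adjusted p = 0.0636), and the position of its probes with respect to the loxP sites is unknown here, so this checks the labels only in part. Heart muscle markers were bright in both genotypes, with the cardiac troponin gene Tnnt2 at 13.23 and 13.15 and the alpha myosin heavy chain gene Myh6 at 11.92 and 11.80 in control and Hdac3-Isl1KO hearts. Probe sets differ in brightness, so levels are compared between pools and not between genes.

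Of the 7 genes, Nppb, Nppc and Npr1 read higher and Nppa, Corin, Npr2 and Npr3 lower in Hdac3-Isl1KO hearts. In limma's test with Benjamini-Hochberg adjustment over all genes, 0 of 7 passed the threshold of 0.05, against 0.428% of all genes (0.230% upward and 0.198% downward). At an unadjusted limma p under 0.05 there were 3 of 7, Nppb and Nppc upward and Npr2 downward, against 14.5% of all genes (6.57% upward and 7.96% downward). The groups did not overlap for 5 of 7, 2 higher and 3 lower, against 21.8% of all genes (9.41% higher and 12.4% lower). The median difference of the 7 was -0.075 against 9.4e-05 for all genes, and the median size regardless of sign was 0.25 against 0.10. So few genes cannot be set apart from the background by these counts.

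**Figure D1:**
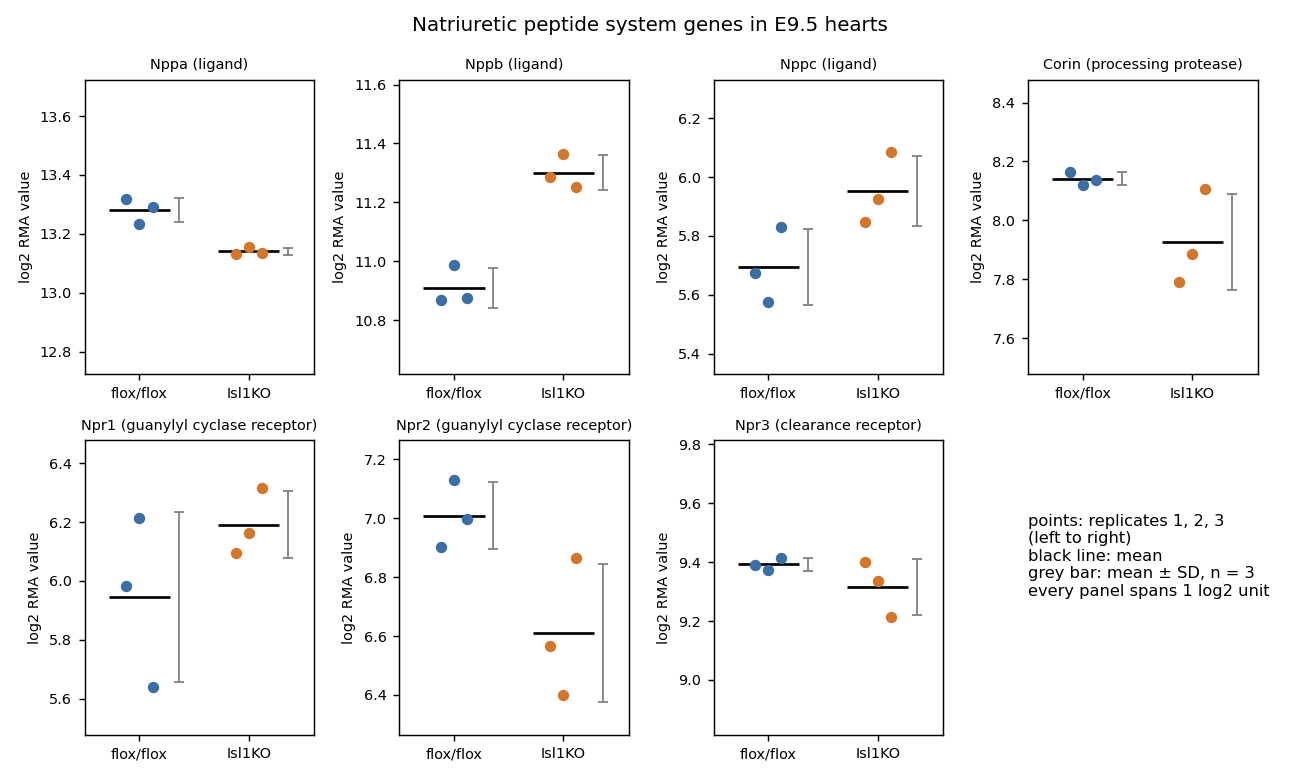
RMA log2 values (vertical axis, 1 log2 unit per panel) of the 7 genes in 3 Hdac3-flox/flox (blue) and 3 Hdac3-Isl1KO (orange) pools; points are replicates 1 to 3, black lines means and grey bars the mean ± SD. The groups are apart for Nppb and Nppc (higher) and for Nppa, Corin and Npr2 (lower), and overlap for Npr1 and Npr3.

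Nppb, the brain natriuretic peptide gene, read 10.87, 10.99 and 10.87 in Hdac3-flox/flox replicates 1 to 3 and 11.29, 11.36 and 11.25 in Hdac3-Isl1KO replicates 1 to 3. Every Hdac3-Isl1KO pool lay above every control pool, and the gap between the groups was wider than the range within either. The means were 10.91 ± 0.067 and 11.30 ± 0.058 (SD, n = 3 each), a difference of 0.39 (95% interval 0.22 to 0.56) or 1.31-fold. By unadjusted limma p (0.000956) Nppb ranked 241 of 22180 genes, and its limma adjusted p was 0.0880, which missed the threshold. It passed when dim genes were left out of the test (limma adjusted p = 0.0166 above the median row and 0.0479 above the 25th percentile row), with the variance prior trended on expression level (0.000878, and 0.000746 with robust estimation) and with array weights (0.0443). In these settings more of all genes passed as well, from 1.10% with array weights to 4.94% above the median row. Under the 9 alternatives that can change it the difference was between 0.36 and 0.43, and over all 16 the limma adjusted p ran from 0.000746 to 0.302.

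Nppa, the atrial natriuretic peptide gene, read 13.32, 13.24 and 13.29 in the control pools and 13.13, 13.15 and 13.14 in the Hdac3-Isl1KO pools. The Hdac3-Isl1KO pools were all lower and lay within 0.025 of each other. The means were 13.28 ± 0.042 and 13.14 ± 0.013 (SD, n = 3 each), a difference of -0.14 (95% interval -0.29 to 0.0081) or 1.10-fold, which did not pass (limma adjusted p = 0.372). With the trended prior Nppa did pass (limma adjusted p = 0.0311, and 0.0184 with robust estimation), and over the 16 settings the adjusted p ranged from 0.0184 to 0.574. The highest value of any gene on these arrays was 13.98, and whether the Nppa signal was compressed near the top of the scale was not tested.

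The balance of both cardiac peptide genes was taken within each array as Nppb minus Nppa on the log2 scale. It was -2.45, -2.25 and -2.42 in the control pools and -1.84, -1.79 and -1.89 in the Hdac3-Isl1KO pools. The groups had to be apart here, since Nppb was higher and Nppa lower in every Hdac3-Isl1KO pool, so the shift of 0.53, or 1.45-fold, restates the single-gene differences as 1 value. Its two-sided exact permutation p of 0.1, the smallest that 3 against 3 arrays allow, follows from that and adds no evidence. With any 1 array left out the shift was between 0.49 and 0.59.

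Cardiomyocyte markers also read slightly lower in Hdac3-Isl1KO hearts. Of 14 marker genes 11 read lower and 0 passed the limma test (4 at an unadjusted p under 0.05), against 0.428% and 14.5% of all genes. The summed level of these markers (log2 of the sum of linear values) was 15.72 to 15.74 in control and 15.67 to 15.68 in Hdac3-Isl1KO hearts. In whole hearts fewer muscle cells and less RNA per muscle cell cannot be told apart. Set against the mean of these markers in the same array, Nppb was higher by 0.47 and Nppa lower by 0.065. For Nppb the groups had to be apart, since it was higher and the marker mean lower in every Hdac3-Isl1KO pool. Its two-sided exact permutation p of 0.1 follows from that and adds no evidence. The groups stayed apart for Nppa too (two-sided exact permutation p = 0.1, the smallest that 3 against 3 arrays allow). Because the marker mean was lower, the Nppb difference also had to be larger than its unscaled size and the Nppa difference smaller.

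The genes around this pair were read in chromosomal order. On the Nppb side Mfn2 (mitochondrial fusion), Plod1 (collagen lysine hydroxylation) and 2510039O18Rik differed by -0.082, -0.10 and -0.11, with groups that overlapped. On the Nppa side Clcn6, a chloride-proton exchanger gene, read 8.93, 9.02 and 8.92 in control and 8.73, 8.71 and 8.70 in Hdac3-Isl1KO pools, a difference of -0.24 (95% interval -0.39 to -0.088, limma adjusted p = 0.189). All Hdac3-Isl1KO pools were lower for Clcn6. Of the 6 genes read at this locus, Nppb was the one with a difference above 0.

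**Figure D2:**
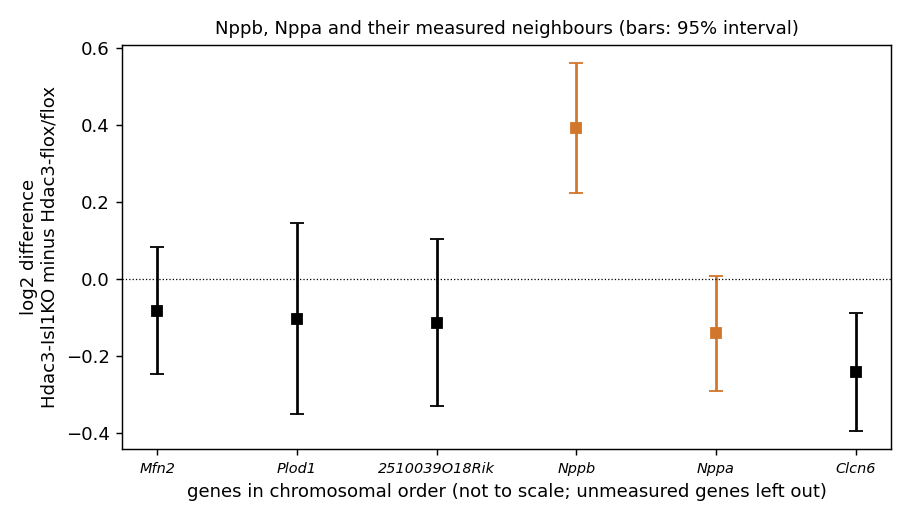
Log2 differences (vertical axis, Hdac3-Isl1KO minus Hdac3-flox/flox, bars are 95% limma intervals, n = 3 pools per group) of the measured genes around Nppb and Nppa in chromosomal order. Nppb lies at 0.39, its neighbours between -0.24 and -0.082.

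Nppc, the C-type peptide gene, read 5.67, 5.58 and 5.83 in control and 5.85, 5.93 and 6.08 in Hdac3-Isl1KO pools. The groups were apart by a narrow margin, with the brightest control just under the dimmest Hdac3-Isl1KO pool. The means were 5.69 ± 0.13 and 5.95 ± 0.12 (SD, n = 3 each), a difference of 0.26 (95% interval 0.027 to 0.49) or 1.20-fold, and the limma adjusted p was 0.298. Nppc lay close to the median gene, 6.06, where signal and background cannot be separated without detection calls, and RMA compresses differences of dim genes. The markers of trophoblast, of hepatic and yolk sac endoderm and of epithelium also read higher in the same pools, as given with the marker lists, and their part in the Nppc value was not tested.

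Corin, which activates the atrial peptide, read 8.17, 8.12 and 8.14 in control and 7.79, 7.88 and 8.11 in Hdac3-Isl1KO pools. Control pools were tightly grouped, and Hdac3-Isl1KO replicate 3 lay just below the lowest of them. The means were 8.14 ± 0.022 and 7.93 ± 0.16 (SD, n = 3 each), a difference of -0.21 (95% interval -0.44 to 0.0077, limma adjusted p = 0.362). Without Hdac3-Isl1KO replicate 3 the difference was -0.30, and without replicate 1 it was -0.15. Relative to the cardiomyocyte markers Corin was lower by 0.14 and the groups overlapped (exact permutation p = 0.4). That value was -0.076 without Hdac3-Isl1KO replicate 1 and -0.23 without replicate 3. The annotated Corin gene overlaps 2 pseudogenes and 1 small nuclear RNA gene.

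Of the receptors, Npr2 had the largest difference. This gene for the C-type peptide receptor read 6.90, 7.13 and 6.997 in control and 6.57, 6.40 and 6.87 in Hdac3-Isl1KO pools. The groups were apart, though Hdac3-Isl1KO replicate 3 lay just under the lowest control. The means were 7.01 ± 0.11 and 6.61 ± 0.24 (SD, n = 3 each), a difference of -0.40 (95% interval -0.70 to -0.091) or 1.32-fold lower, with an unadjusted limma p of 0.0183 and an adjusted p of 0.247. It passed in 0 of 16 settings, where the adjusted p ranged from 0.0982 to 0.495 and the difference from -0.52 to -0.29. Its ligand gene Nppc and Npr2 thus read in opposite directions, and neither passed. The annotated Npr2 gene overlaps the Spag8 gene, and whether its probes lie in the overlap is not known here.

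Npr1, the receptor gene for the atrial and brain peptides, was read by 2 rows. The brighter row was 5.98, 6.21 and 5.64 in control and 6.09, 6.16 and 6.32 in Hdac3-Isl1KO pools, and the groups overlapped because the control pools were widely spread. The difference was 0.25 (95% interval -0.11 to 0.60, limma adjusted p = 0.503). Without Hdac3-flox/flox replicate 3, its lowest array, the difference was 0.094, and without replicate 2 it was 0.38. The dimmer row differed by 0.18 in the same direction. Relative to the endocardium and endothelium markers Npr1 was higher by 0.27 (exact permutation p = 0.3), by 0.13 without Hdac3-flox/flox replicate 3 and by 0.39 without replicate 2. With the mean of both rows it was higher by 0.24 and the exact permutation p was 0.1, the smallest possible. The opposite order of the rows within groups narrows the spread of their mean, so this p does not show that both rows agree.

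Npr3, the clearance receptor gene, read 9.39, 9.37 and 9.41 in control and 9.40, 9.34 and 9.21 in Hdac3-Isl1KO pools. Hdac3-Isl1KO replicate 1 lay among the controls and replicate 3 was the lowest. The difference was -0.075 (95% interval -0.25 to 0.099, limma adjusted p = 0.689), and without Hdac3-Isl1KO replicate 3 it was -0.023. Of 13 endocardium and endothelium markers 8 read lower and 0 passed (1 at an unadjusted limma p under 0.05), against 0.428% and 14.5% of all genes. The summed levels of these markers were 12.36 to 12.40 in control and 12.33 to 12.34 in Hdac3-Isl1KO hearts, whereas their mean log2 levels overlapped. Relative to those markers Npr3 differed by -0.052 (exact permutation p = 0.7). A long noncoding RNA gene, Gm5144, overlaps Npr3 in the annotation.

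**Figure D3:**
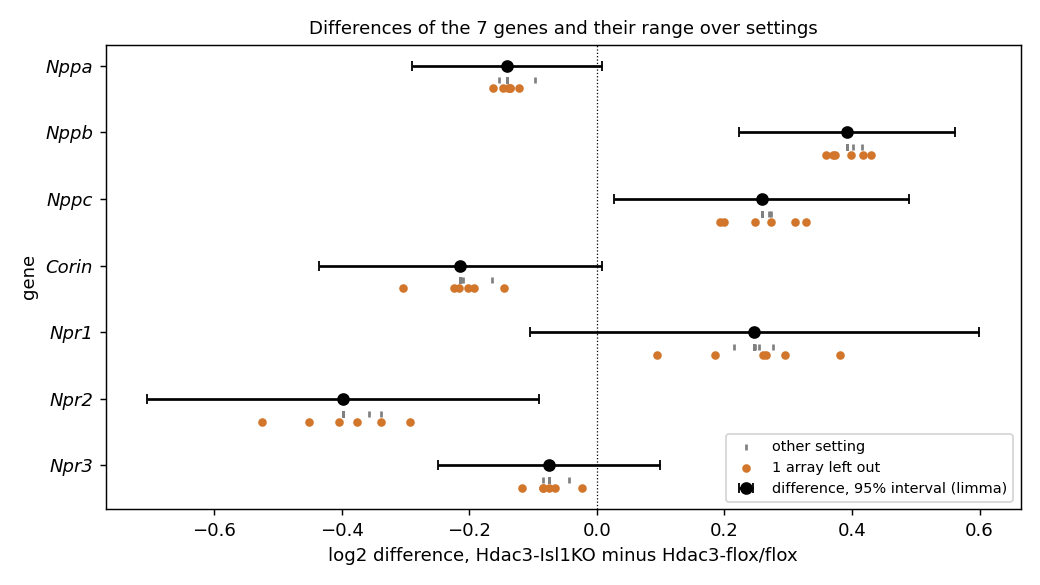
Log2 differences of the 7 genes (horizontal axis, Hdac3-Isl1KO minus Hdac3-flox/flox). Black points and bars give the limma difference and 95% interval, orange points the value with 1 array left out and grey ticks other settings. Of the 16 alternatives, 7 (6 for Npr1) give the main difference by construction. The 9 (10 for Npr1) that can change it keep its sign, with Nppb between 0.36 and 0.43 and Npr1 and Npr3 closest to 0 when an array is left out.

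The wider pathway was read from 5 gene lists. In peptide processing and breakdown 0 of 9 genes passed the limma test, with 4 at an unadjusted p under 0.05 and a median difference of -0.028. Among all genes 0.428% passed and 14.5% had an unadjusted p under 0.05. Dpp4, a peptidase that trims the brain natriuretic peptide, was at 7.09, 7.43 and 7.24 in control and 6.59, 6.39 and 6.59 in Hdac3-Isl1KO pools. It was lower in every Hdac3-Isl1KO pool, by 0.73 as a log2 difference (adjusted p = 0.0552 with limma, range over 15 settings 0.00265 to 0.210). Pcsk6, the convertase that activates corin, differed by -0.27 (limma adjusted p = 0.148). Corin itself also read lower, and a link was not tested. The others named were Ostn (0.30), whose product occupies the clearance receptor, and the insulin-degrading enzyme gene Ide (-0.26). Ostn was dim, at 3.86 in control and 4.16 in Hdac3-Isl1KO pools, below the 25th percentile row of 4.45. The gene of the main peptide-degrading enzyme neprilysin, Mme, differed by -0.092 with overlapping groups.

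Among genes of other guanylyl cyclases, their ligands and nitric oxide synthases, 1 of 12 measured genes passed, upward (0.428% of all genes passed), and 2 had an unadjusted limma p under 0.05 (14.5% of all genes). The gene that passed was Guca2b, for uroguanylin, a ligand of the intestinal cyclase Gucy2c and not of the natriuretic peptide receptors, at 5.39, 5.20 and 5.15 in control and 6.40, 6.05 and 6.12 in Hdac3-Isl1KO pools (difference 0.94, limma adjusted p = 0.0345). All Hdac3-Isl1KO pools were higher, but with any 1 array left out its limma adjusted p was between 0.0979 and 0.151. Guca2b was dim, at the 44.7 percentile of gene levels, and as for Nppc signal and background cannot be separated without detection calls. Its receptor gene Gucy2c differed by -0.087. The genes of the nitric oxide receptor's subunits, Gucy1b1 and Gucy1a1, differed by -0.29 and -0.15 with groups apart (limma adjusted p = 0.176 and 0.351), and Nos2 by 0.19. The list's median was -0.0010.

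Of 19 measured cyclic GMP effectors and phosphodiesterases 0 passed (0.428% of all genes did), 4 had an unadjusted limma p under 0.05 (14.5% of all genes) and the median was -0.035. Abcc5, an exporter of cyclic nucleotides, differed by -0.33, and Rgs2, a G protein regulator switched on by cyclic GMP-dependent kinase, by 0.35, each with groups apart (limma adjusted p = 0.150 and 0.194). The phosphodiesterase genes Pde1a and Pde1b differed by -0.30 and -0.17. Pde1a was dim, at 4.37 in control and 4.06 in Hdac3-Isl1KO pools, below the 25th percentile row of 4.45. The kinase gene Prkg1, the main cyclic GMP effector in muscle, differed by -0.035 (95% interval -0.24 to 0.17).

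Of 24 transcription factor genes known to act at Nppa or Nppb 0 passed (0.428% of all genes did), 3 had an unadjusted limma p under 0.05, a share near the 14.5% of all genes, and the median was 0.021. Hey1, a repressor downstream of Notch, differed by 0.33 and was higher in all Hdac3-Isl1KO pools (limma adjusted p = 0.109). Tbx5, an activator of Nppa, differed by -0.18 and was lower in all of them (limma adjusted p = 0.273). Nppa also read lower but Nppb higher, and a link to either was not tested. The glucocorticoid receptor gene Nr3c1 differed by -0.23 and Hand1 by 0.16. Gata4 differed by 0.021 and Nkx2-5 by -0.12 (95% intervals -0.13 to 0.17 and -0.32 to 0.082), and the Nkx2-5 difference was -0.040 without Hdac3-Isl1KO replicate 1. These are genes of factors that bind the GATA sites and the Nkx2-5 core searched in the promoters.

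Chamber myocardium genes, the group to which Nppa belongs in the embryo, had 1 of 16 called, downward (0.428% of all genes were called), with 7 at an unadjusted limma p under 0.05 (14.5% of all genes), 6 of them lower, and a median of -0.13. Of the 16 genes 11 read lower and 5 higher, Smpx among the latter (0.20, limma adjusted p = 0.329). The gap junction gene Gja1 fell from 9.59, 9.58 and 9.61 to 9.16, 9.11 and 9.13 (difference -0.46, limma adjusted p = 0.0410, but 0.104 to 0.200 with any 1 array left out). The groups were far apart compared with their ranges. The phospholamban gene Pln (-0.43), Cited1 (-0.36) and Irx3 (-0.23) did not pass (limma adjusted p = 0.0636, 0.180 and 0.197). All 3 were lower in every Hdac3-Isl1KO pool. Over 15 alternative settings Pln passed in 6 and Gja1 in 7, against 2 for Cited1 and 0 for Irx3. The Nppa difference, -0.14, lay close to this list's median, and that of Nppb had the sign of the 5 higher genes.

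**Figure D4:**
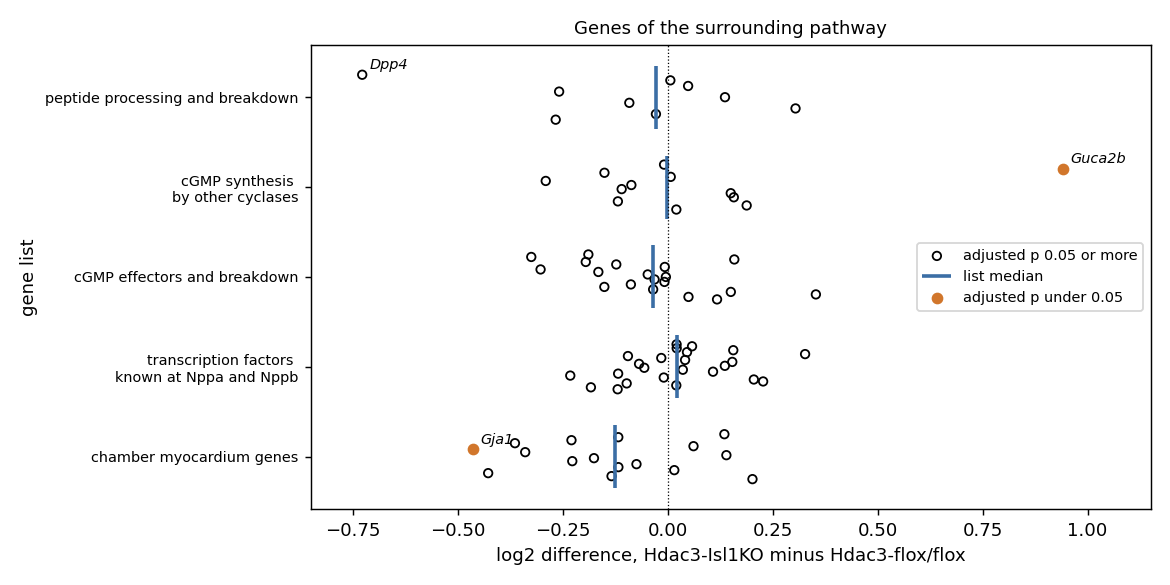
Log2 differences (horizontal axis, Hdac3-Isl1KO minus Hdac3-flox/flox, 3 pools each) of single genes in 5 pathway lists. Filled orange points passed the limma threshold (Guca2b at 0.94 and Gja1 at -0.46), open points did not, and blue lines are list medians, from -0.13 for chamber myocardium genes to 0.021 for transcription factors.

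Markers of other cells were read because hearts dissected at this stage can carry along neighbouring tissue. For the counts that follow, 0.428% of all genes passed the limma test and 14.5% had an unadjusted limma p under 0.05. In Hdac3-Isl1KO pools 10 of 11 measured trophoblast markers read higher and 6 passed the limma test, with summed levels of 8.84 to 9.02 in control and 10.05 to 10.17 in Hdac3-Isl1KO hearts. Markers of hepatic and yolk sac endoderm read higher for 10 of 11 (8.79 to 8.97 against 9.31 to 9.35 summed, 1 passed), and the epithelium markers for 8 of 8 (9.82 to 9.89 against 10.20 to 10.26, 0 passed, 7 at an unadjusted p under 0.05). The epicardium and proepicardium markers read lower for 7 of 9, with 2 passing (11.56 to 11.65 against 11.24 to 11.32). Decidua markers had 4 of 9 lower and 2 passing downward (10.03 to 10.19 against 9.70 to 9.84). Summed levels were also apart for smooth muscle (14.28 to 14.32 against 14.34 to 14.36, 5 of 6 higher, 0 passed, 2 at an unadjusted limma p under 0.05). For neural crest they were 10.16 to 10.28 against 9.90 to 9.97, with 3 of 7 lower, 0 passed and 2 at an unadjusted limma p under 0.05. That sum weighs bright genes most, and Ednrb, the brightest of the list, differed by -0.44 (limma adjusted p = 0.0564). The mean log2 levels of the neural crest list overlapped (6.04 to 6.30 against 6.07 to 6.20). Sums of the endocardium and endothelium list were apart as well, as given with Npr3, while its mean log2 levels overlapped (8.20 to 8.25 against 8.19 to 8.22). With any 1 array left out, 1 to 6 trophoblast markers passed, 0 to 1 of epicardium and proepicardium, and 0 of decidua and of hepatic and yolk sac endoderm. Their part in the differences of Nppb, Nppc, Guca2b and the other genes was not tested. The trophoblast marker Tpbpa stood at 4.31 and 4.41, below the 25th percentile row of 4.45.

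**Figure D5:**
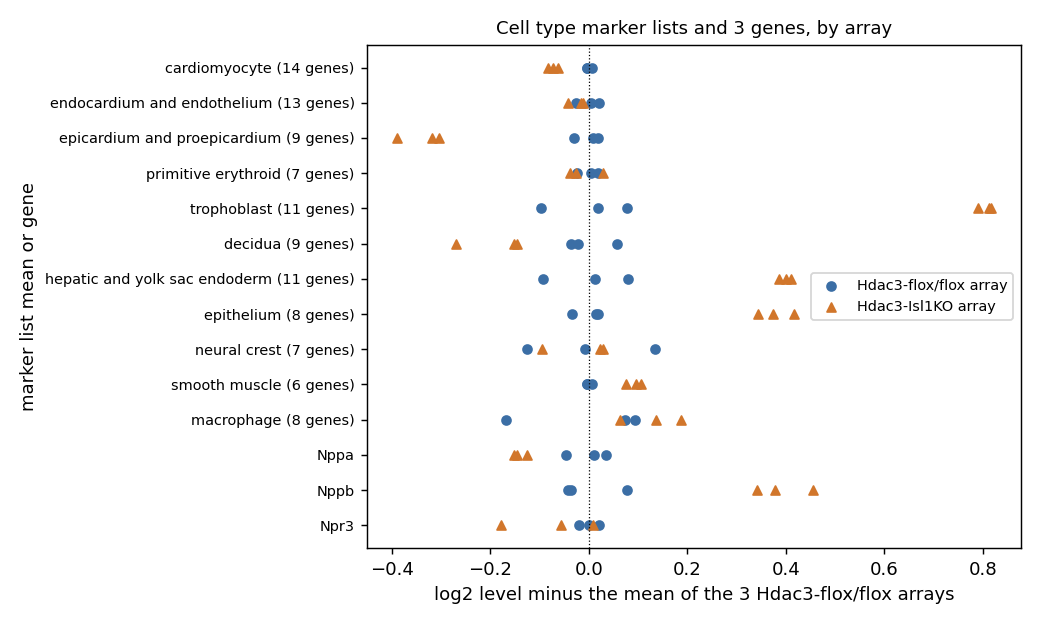
Mean log2 level of each marker list, and the levels of Nppa, Nppb and Npr3, in each array (horizontal axis, relative to the mean of the 3 Hdac3-flox/flox arrays); circles are Hdac3-flox/flox and triangles Hdac3-Isl1KO arrays. The mean trophoblast level is 0.81 higher in Hdac3-Isl1KO arrays and the mean cardiomyocyte level 0.076 lower. The mean endocardium and endothelium levels overlap, unlike the summed levels given with Npr3.

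The genes most alike to each member were found by Pearson's r of log2 values over the 6 arrays among genes at or above the median gene level. With 6 arrays and about 11089 genes searched, values near 1 arise for many genes, and r includes the difference between genotypes. Nppb was most alike to Srgn (r = 0.996), for the proteoglycan serglycin, Bop1 (0.996), for ribosome assembly, and Hint1 (0.995), with 144 genes above 0.95. Of these Srgn differed by 0.82 (limma adjusted p = 0.0204). Nppa was most alike to Extl3 (0.995), Zdhhc1 (0.993) and the calcium sensor gene Stim2 (0.991), with 92 genes above 0.95. Nppc was most alike to Mrgpra1 (0.986), Gtf2f1 and Snx8, Corin to the muscle ubiquitin ligase gene Trim63 (0.983), Exosc2 and Tnip2, and Npr2 to Kptn (0.997), Hmga2-ps1 and Zfp148. Npr1 was most alike to Ube2l6 (0.986), Lipt1 and Myo10, and Npr3 to Zfp606 (0.992), Prdm11 and Med25. Srgn alone among these 21 genes passed the limma test.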

How the data were processed

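The authors deposited 1 table of log2 expression values for 6 arrays, made with oligo and RMA per the submitters' processing notes. RMA adjusts for background, brings arrays to a common distribution and combines the probes of a set. The sources used here do not give tool versions, genome build or probe annotation. Per the labels' protocols, 100 ng of total RNA was labelled with the WT PLUS kit. Of 41345 rows, 23521 had 1 gene symbol in the platform annotation. The row with the highest mean was used per gene, which gave 22180 genes. No dim gene was filtered out, and no detection calls or batches were used here.

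Groups were compared two-sided with limma's lmFit and eBayes (version 3.58.1, R version 4.3.3) under a constant variance prior, which raised the degrees of freedom from 4 to 6.92. P-values were adjusted by Benjamini-Hochberg across all genes, and 0.05 was the threshold. Within-array values were compared with exact permutation tests in scipy 1.17.1. The limma fit, but not the other steps, was tested on simulated data.

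The members and lists were chosen with earlier results of these data known. Named genes were the 7 members, up to 4 genes per pathway list with the smallest p, the 3 genes most alike to each member, those analysed among the 3 neighbours on each side of Nppb and Nppa, Hdac3 and Isl1. Mme, Prkg1, Gata4, Nkx2-5, Gucy2c, Smpx and the marker genes were named in addition after values were seen. Isl1 differed by -0.033 (limma adjusted p = 0.913). Neighbours and promoter windows came from RefSeq tables of build GRCm38.p6.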

Additional observations from a re-analysis of the deposited data

How the results depend on the processing

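Of 16 alternatives, the replicate block, both level filters, both trended priors, the test of all rows and, for genes with 1 row, the mean of rows cannot alter a difference. Under the other 9 (10 for Npr1) each of the 7 genes kept its sign. The number of the 7 that passed with limma, 0 in the main test (3 at an unadjusted p under 0.05), became 1 with genes above the median row (Nppb, 0.39, where 4.94% of all genes tested passed), 1 above the 25th percentile row (Nppb, 0.39, 1.33%), 1 with array weights (Nppb, 0.42, 1.10%) and 2 with a trended prior, with or without robust estimation (Nppb, 0.39, and Nppa, -0.14, 3.90%). Fewer genes tested and a different variance model separate these settings from the main test. The replicate block left 0 of 7 past the threshold, with a limma adjusted p of 0.235 for Nppb. Deviations of same-numbered arrays correlated at -0.013, -0.086 and 0.040, and those of differently numbered arrays at -0.12 to 0.12. These values show no pairing by number, but so few arrays cannot exclude one. With the block limma gave 0 called genes in all, with 2744 at an unadjusted limma p under 0.05, and the Nppb minus Nppa shift is 0.53 with or without it.

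Of all genes, 95 passed in the main test, 2 to 25 with an array left out, 149 with quantile normalization, 617 and 235 above the median and 25th percentile row, 866 with a trended prior, with or without robust estimation, 243 with array weights and 31 when all array rows were tested. The cyclase list's 1 call became 0 with the replicate block, with any array left out (range 0 to 0) or with all rows, and 2 above the median row or with either trended prior. The chamber list's 1 call became 0 with the block, any array left out (range 0 to 0), arrays centred on their medians or all rows, 2 with quantile normalization, either filter or array weights, and 3 with either trended prior. The processing list went from 0 to 1 with quantile normalization, the 25th percentile filter, either trended prior or array weights and to 2 above the median row. The effector list went from 0 to 1 above the median row and with either trended prior, and the transcription factor list from 0 to 1 above the median row and 2 with either trended prior. The cause was not tested.

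Npr3 relative to the endocardium and endothelium markers ran from -0.10 to 0.0055 with an array left out and turned positive without Hdac3-Isl1KO replicate 3. The small number of arrays limits the precision of every value, and dim genes, Nppc, Npr1 and Guca2b among them, cannot be told from background.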
